A study of Raphanus sativus with 9 samples.

Results

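The expression profiles of 4 radish genes that act in the middle of methionine side-chain elongation were examined before, during, and after vernalization. They are the methylthioalkylmalate synthase homologs *RsMAM1a* (RSG11180), *RsMAM1b* (RSG13852), and *RsMAM1c* (RSG24637), and *RsIPMI-LSU1* (RSG39553), the homolog of the large subunit of isopropylmalate isomerase. They were chosen by identifier and name from a list of 94 glucosinolate (GSLs) genes annotated by homology to *Arabidopsis*, out of 64657 genes in the count tables. All 4 passed the filter on low counts that left 32043 genes. The plants were radish (*Raphanus sativus*) of the cultivar Taebaek, and each library held RNA of leaf and root tissue by the sample labels, although the extraction text speaks of whole seedlings. NV plants were 4 weeks old and had no cold, V plants were 8 weeks old after 4 weeks of cold, and AV plants were 10 weeks old after the same cold and 2 further warm weeks. Because uncooled plants of 8 or 10 weeks were not analysed here, effects of age and of cold cannot be told apart. By the paper, the cold was given in a cold room under sodium light, whereas plants grew in a greenhouse before and after it. Effects of light and of growth place cannot be told apart from that of cold either. The same holds for the RNA of leaves and of roots in a library, and for fewer cells of a type and less RNA per cell. The tissue labels could not be checked against marker genes, because the identifiers outside the GSLs list carry no annotation in the sources used here.

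In *Arabidopsis*, aliphatic GSLs start from methionine, whose side chain is lengthened in the chloroplast before the GSLs core is built. A MAM synthase condenses a 2-oxo acid made from methionine with acetyl-CoA. The isopropylmalate isomerase, a pair of a large and a small subunit, then moves a hydroxyl group, and an isopropylmalate dehydrogenase releases CO2 to give a 2-oxo acid longer by a methylene group. These enzymes resemble those of leucine synthesis, and the large subunit of the isomerase serves both pathways in *Arabidopsis*, where different small subunits go with each. The steps thus differ in how far they belong to GSLs alone.

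The total count on genes ranged from 21119531 to 27606212 per library. AV replicates 2 and 3 held the same number for 98.7% of the genes that had 40 or more counts in the pair, against 0.359% to 0.899% for the 35 other pairs of libraries, and both gave the same count for each of the 4 genes. The pair differed by less than the sampling noise and was counted as 1 sample, its mean, which leaves 3 NV, 3 V, and 2 AV libraries. Levels are given as CPM, the counts scaled to a common library size with TMM normalization, which balances the bulk of the genes between libraries. Gene lengths were not at hand, so that levels are compared between time points for the same gene and not between genes. A gene was called where the quasi-likelihood test of edgeR gave a p-value under 0.05 after Benjamini-Hochberg adjustment for the 32043 genes. Reads that align to several places are left out by the counting program and made up 0.974% to 1.59% of all reads. Reads of similar homologs can be lost that way. The loss at single MAM1 homologs was not measured and can be larger than this share over all reads, so that their values are uncertain.

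After vernalization, 3 of the 4 genes were lower than before it, where 19.8% of all genes tested were called lower. *RsMAM1b* fell 4.51-fold, *RsMAM1c* fell 1.86-fold, and *RsIPMI-LSU1* fell 1.48-fold in AV compared with NV. During vernalization, only *RsIPMI-LSU1* of the 4 was called, 1.44-fold lower in V than in NV, where 19.3% of all genes were called lower. Between AV and V, *RsMAM1b* and *RsMAM1c* fell, where 16.9% of all genes were called lower. None of the 4 was called higher in any of the 3 comparisons, where the share of all genes called higher was 19.2% in V/NV, 17% in AV/NV, and 14.7% in AV/V.

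*RsMAM1b* had 173, 211, and 130 CPM in the NV libraries, 106, 166, and 110 CPM in the V libraries, and 43.0 and 32.9 CPM in the AV libraries. The AV libraries lay below all NV and V libraries, as for 29% of all genes tested in AV/NV and 30.2% in AV/V, whereas V and NV overlapped, since V replicate 2 was above NV replicate 3. The means were 171 ± 40.7 CPM in NV (SD, n = 3), 127 ± 33.2 CPM in V (SD, n = 3), and 38.0 ± 7.12 CPM in AV (SD, n = 2), so that AV plants held 22.2% of the NV mean. The log2 fold change was -2.17 in AV against NV (standard error 0.26, adjusted p = 8.83e-06) and -1.74 in AV against V (standard error 0.25, adjusted p = 7.04e-05).

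In V against NV, the log2 fold change of *RsMAM1b* was -0.43 (95% interval -0.88 to 0.02), which was not called (adjusted p = 0.119). The call changed with single libraries. Without V replicate 2 the log2 fold change was -0.66 (adjusted p = 0.0189 from the same edgeR test), and without NV replicate 3 it was -0.60 (adjusted p = 0.0268). V replicate 2 was the library with the fewest counts on genes and had the highest CPM of the V libraries for all 4 genes. NV replicate 2 had the next fewest counts and the highest CPM of the NV libraries for *RsMAM1b*, *RsMAM1c*, and *RsIPMI-LSU1*, but not for *RsMAM1a*. The part of depth in these values was not tested.

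*RsMAM1c* had 59.4, 60.7, and 57.1 CPM in the NV libraries, 63.5, 76.2, and 72.4 CPM in the V libraries, and 32.1 and 31.5 CPM in the AV libraries. Replicates lay close together, and the 3 groups did not overlap, with V highest and AV lowest. AV lay below NV as for 29% of all genes tested, and below V as for 30.2%. The share of genes that keep all 3 groups apart was not counted. The variation between replicates as estimated by edgeR, which draws each gene toward the other genes, was 13.6%, against a median of 18.3% over all genes tested. The SD seen within a group was 3.12% of the mean in NV, 9.27% in V, and 1.45% in AV. The means were 59.1 ± 1.84 CPM in NV (SD, n = 3), 70.7 ± 6.55 CPM in V (SD, n = 3), and 31.8 ± 0.46 CPM in AV (SD, n = 2). In AV against NV the log2 fold change was -0.89 (standard error 0.17, adjusted p = 0.000643), and in AV against V it was -1.15 (standard error 0.17, adjusted p = 8.4e-05).

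Although every V library was above every NV library for *RsMAM1c*, as for 25.1% of all genes tested, the log2 fold change of 0.26 (95% interval -0.05 to 0.57, adjusted p = 0.176) did not pass the threshold. NV and V are thus neighbours in the order of levels. Their difference did not exceed what the fit allows as spread, which is partly taken from other genes.

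*RsMAM1a* was close to the detection limit. It had 8, 2, and 1 counts in the NV libraries, 8, 13, and 2 counts in the V libraries, and 11 and 9 counts in the AV libraries, and 3 of these 8 libraries were under the floor of 3 counts (0.109 to 0.142 CPM). Both AV libraries were above all NV libraries, as for 28.4% of all genes tested, and V overlapped with both groups. The log2 fold changes of 1.08 in V against NV (95% interval -0.68 to 2.84, adjusted p = 0.327) and 1.25 in AV against NV (95% interval -0.61 to 3.12, adjusted p = 0.287) did not pass the threshold, and a change of this gene was not detectable at this depth. Without NV replicate 1, the log2 fold changes were 2.23 in V against NV and 2.40 in AV against NV, and without NV replicate 3 they were 0.63 in V against NV and 0.80 in AV against NV, none of them called. In AV against V the log2 fold change was 0.17 (95% interval -1.54 to 1.88, adjusted p = 0.896).

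Among the reads of the 3 MAM1 homologs together, *RsMAM1a* took 0.135%, 0.0348%, and 0.0219% in the NV libraries, 0.168%, 0.264%, and 0.0484% in the V libraries, and 0.549% and 0.512% in the AV libraries. The shares in both AV libraries were above all others, and V and NV overlapped. With reads pooled over a group, the share was 0.0678% in NV (95% Wilson interval 0.0379% to 0.121%), 0.167% in V (0.111% to 0.25%), and 0.531% in AV (0.344% to 0.82%), where intervals cover counting error only and NV replicate 1 gave 8 of the 11 NV counts. The summed level of the 3 homologs was 231 ± 42.5 CPM in NV (SD, n = 3), 198 ± 38.7 CPM in V (SD, n = 3), and 70.2 ± 7.64 CPM in AV (SD, n = 2).

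**Figure D1:**
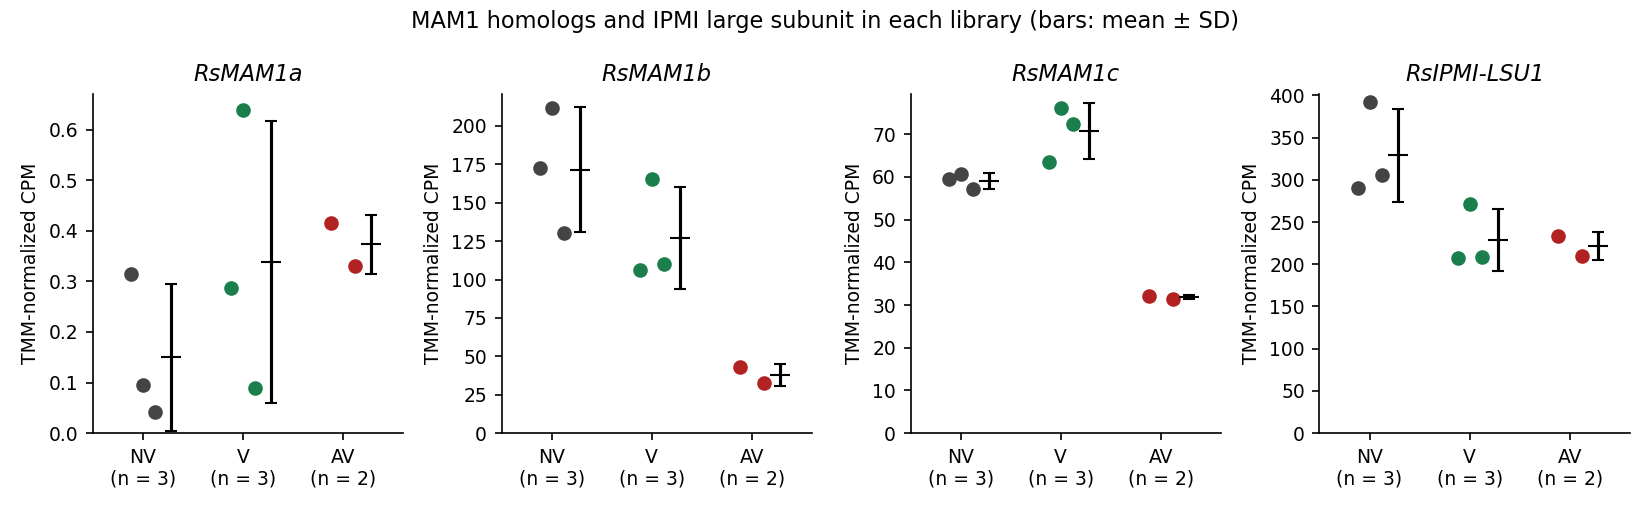
TMM-normalized CPM of *RsMAM1a*, *RsMAM1b*, *RsMAM1c*, and *RsIPMI-LSU1* in each library of NV, V, and AV, each panel with its own axis from 0, with the mean and SD beside the points. *RsMAM1b* and *RsMAM1c* are lowest in the 2 AV libraries, *RsIPMI-LSU1* is lower in V and in AV than in NV, and *RsMAM1a* stays under 1 CPM.

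*RsIPMI-LSU1* had 290, 392, and 306 CPM in the NV libraries, 207, 271, and 209 CPM in the V libraries, and 234 and 210 CPM in the AV libraries. All V and AV libraries were below the lowest NV library, as for 23.9% of all genes tested in V/NV and 29% in AV/NV, and V and AV overlapped. The means were 329 ± 55.1 CPM in NV (SD, n = 3), 229 ± 36.4 CPM in V (SD, n = 3), and 222 ± 16.7 CPM in AV (SD, n = 2). The log2 fold change was -0.52 in V against NV (standard error 0.17, adjusted p = 0.0237) and -0.57 in AV against NV (standard error 0.19, adjusted p = 0.0306).

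In AV against V, the log2 fold change of *RsIPMI-LSU1* was -0.05 (95% interval -0.45 to 0.36, adjusted p = 0.883). The interval leaves out falls of the size of *RsMAM1b* and *RsMAM1c*, while smaller changes in either direction remain possible. The calls against NV changed with single libraries, while the direction did not. Without NV replicate 2, the highest library, the log2 fold change was -0.38 in V against NV (adjusted p = 0.0889) and -0.43 in AV against NV (adjusted p = 0.0833). In V against NV it was -0.46 without V replicate 1 (adjusted p = 0.111) and -0.46 without V replicate 3 (adjusted p = 0.104). In AV against NV it was -0.65 without AV replicate 1 (adjusted p = 0.0986) and -0.50 without the averaged AV library (adjusted p = 0.19), in fits where the lone AV library is assumed to vary like the other groups.

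**Figure D2:**
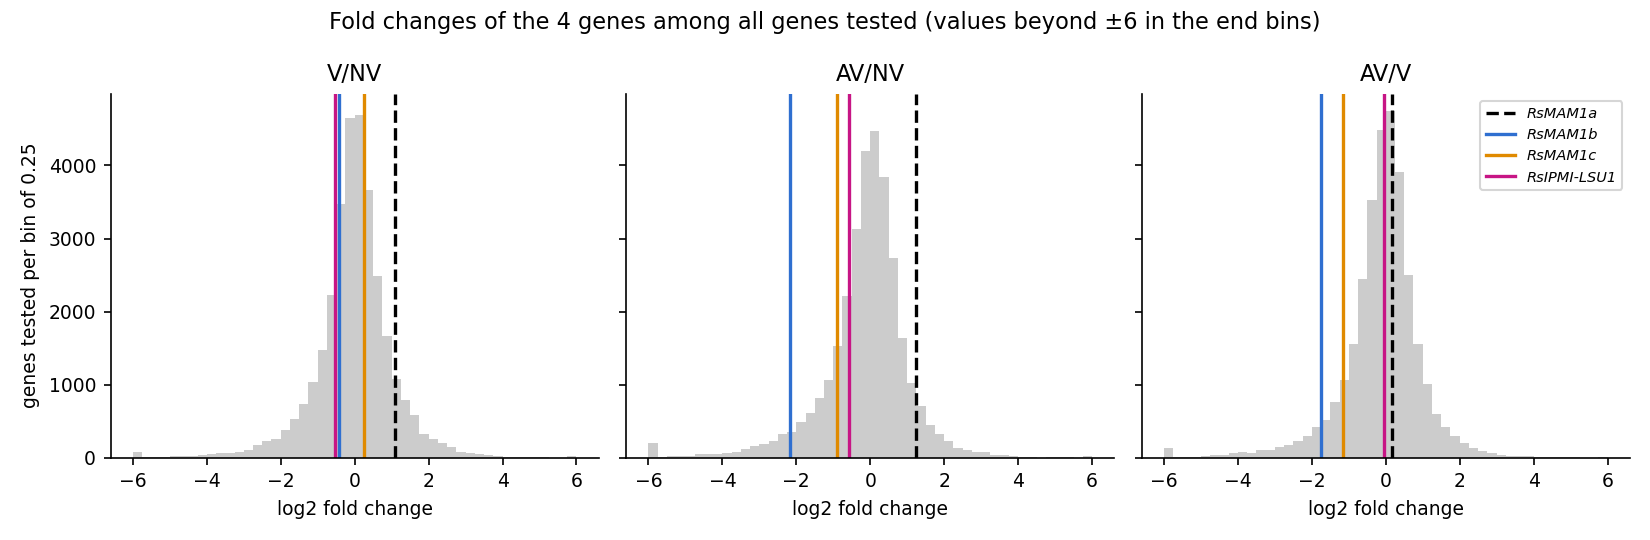
Histogram of the log2 fold changes of all 32043 genes tested in V/NV, AV/NV, and AV/V, with vertical lines at the values of *RsMAM1a*, *RsMAM1b*, *RsMAM1c*, and *RsIPMI-LSU1* and with values beyond 6 or -6 placed in the end bins. In AV/NV, 5.39% of all genes had a lower log2 fold change than *RsMAM1b*, 17.3% a lower one than *RsMAM1c*, and 25% a lower one than *RsIPMI-LSU1*.

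The median log2 fold change of the 4 genes was -0.09 in V/NV, -0.73 in AV/NV, and -0.60 in AV/V, against 0.01, 0, and -0.02 for all genes tested. The medians of the 4 genes include *RsMAM1a*, which was close to the detection limit. The histogram of all genes tested shows how far each of the 4 genes lay from the bulk. In AV/V, *RsMAM1b* was at percentile 6.18 and *RsMAM1c* at percentile 11.3 of all log2 fold changes, whereas *RsIPMI-LSU1* was at percentile 48.3.

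The MAM1 homologs did not keep the same proportion. The ratio of *RsMAM1b* to *RsMAM1c* counts within a library, in which depth cancels, was 2.91, 3.48, and 2.28 in the NV libraries, 1.68, 2.17, and 1.52 in the V libraries, and 1.34 and 1.05 in the AV libraries. It was lower in every V library than in every NV library, and lower again in both AV libraries. On the log2 scale the mean ratio was lower by 0.69 in V than in NV, by 1.27 in AV than in NV, and by 0.58 in AV than in V.

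Of the spread of this log2 ratio, measured as its sum of squares, 83.4% lay between the time points (exact permutation test over 280 groupings of the 8 libraries, one-sided, p = 0.00714, adjusted p = 0.0143 over the 4 ratios tested). The smallest p that this permutation test can give is 0.00357, and single pairs of time points were not tested. The 4 ratios were chosen with earlier results of these data known, so that their p-values are not free of that choice. The share between time points was 83.5% without V replicate 1 and 85.7% without V replicate 3 (adjusted p = 0.0571 for each in the exact permutation test) and 78.1% without the averaged AV library (adjusted p = 0.114), where fewer groupings exist. *RsMAM1c* took 26.1% ± 4.12 of the MAM1 reads in NV, 36.2% ± 4.25 in V (SD, n = 3 each), and 45.6% ± 4.31 in AV (SD, n = 2), a share that also depends on the unknown gene lengths.

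**Figure D3:**
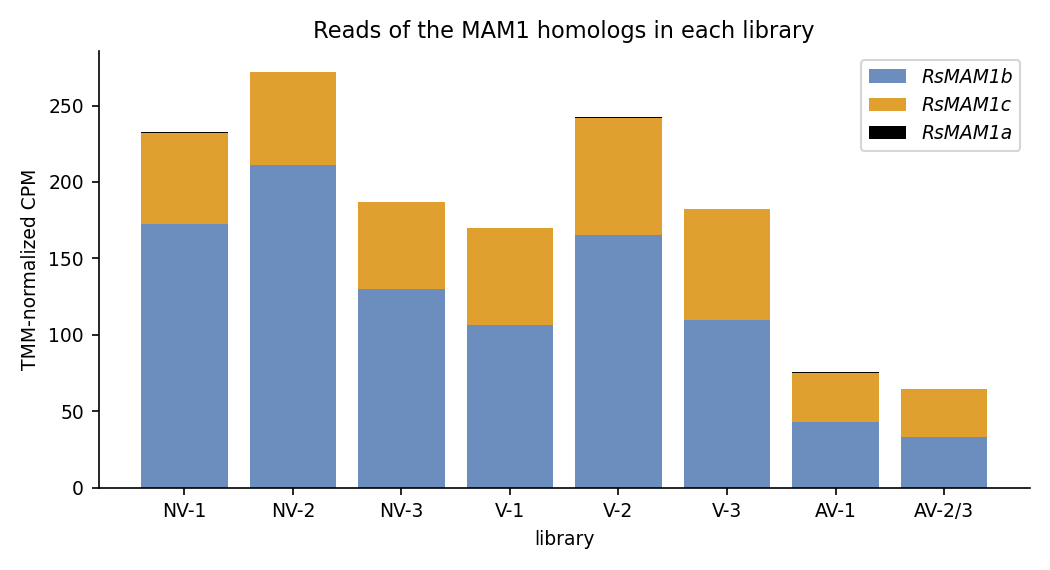
Stacked bars of the TMM-normalized CPM of *RsMAM1b*, *RsMAM1c*, and *RsMAM1a* in each of the 8 libraries, where AV-2/3 is the mean of the near-identical AV replicates 2 and 3. The bars of the AV libraries are the shortest, and *RsMAM1c* makes up a larger part of them than of the NV bars, whereas *RsMAM1a* is too low to be seen as more than a line.

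The other 6 genes of side-chain elongation in the study's list were set beside these 4. *RsBCAT4* encodes the aminotransferase that turns methionine into its 2-oxo acid, *RsBAT5* the transporter that carries 2-oxo acids into the chloroplast, *RsIPMI-SSU2* a small subunit of the isomerase, *RsIPMDH1* the dehydrogenase, and *RsBCAT3a* and *RsBCAT3b* the aminotransferase that can turn the lengthened 2-oxo acid back into an amino acid, all named after their *Arabidopsis* homologs. Of these 6, 2 were lower in V than in NV, 5 were lower in AV than in NV, and 5 were lower in AV than in V, where 19.3%, 19.8%, and 16.9% of all genes tested were called lower, and none was called higher. Their median log2 fold change was -0.38 in V/NV, -2.0 in AV/NV, and -1.62 in AV/V.

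*RsIPMI-SSU2* is a homolog of a small subunit of the isomerase, and its pairing with *RsIPMI-LSU1* in radish was not tested. *RsIPMI-SSU2* had 68.0, 48.3, and 94.1 CPM in the NV libraries and 51.1, 49.7, and 49.9 CPM in the V libraries. In the AV libraries it had 18.1 and 17.3 CPM. NV replicate 2, the highest NV library for *RsIPMI-LSU1*, was the lowest for *RsIPMI-SSU2*. The log2 fold change of *RsIPMI-SSU2* was -1.99 in AV against NV (standard error 0.24, adjusted p = 1.17e-05) and -1.50 in AV against V (standard error 0.24, adjusted p = 0.000155), and that of -0.48 in V against NV did not pass the threshold (adjusted p = 0.0674).

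*RsIPMDH1*, which acts right after the isomerase, had 214, 257, and 190 CPM in the NV libraries, 117, 144, and 113 CPM in the V libraries, and 30.3 and 28.9 CPM in the AV libraries. It fell at both steps without overlap between the groups, as for 23.9% of all genes tested in V/NV and 30.2% in AV/V. Its log2 fold change was -0.82 in V against NV (adjusted p = 0.000987), -2.89 in AV against NV (adjusted p = 5.57e-08), and -2.08 in AV against V (adjusted p = 1.27e-06).

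At the entry of the pathway, *RsBCAT4* had log2 fold changes of -2.01 in AV against NV (adjusted p = 7.05e-07 in the edgeR test) and -0.28 in V against NV (adjusted p = 0.172). *RsBAT5* fell by 3.33 on the log2 scale in AV against NV (adjusted p = 1.34e-05) and by 1.37 in V against NV (adjusted p = 0.00275). Its NV libraries were far apart, with 40.8, 61.0, and 16.6 CPM, against 15.3, 15.4, and 15.0 CPM in the V libraries. NV replicate 3 was thus close to the V level. *RsBCAT3a* was not called in any comparison, with log2 fold changes between -0.14 and -0.04, and *RsBCAT3b* fell by 0.50 in AV against NV (adjusted p = 0.0382) and by 0.70 in AV against V (adjusted p = 0.00775). Both are homologs of a gene that in *Arabidopsis* also takes part in the synthesis of branched-chain amino acids.

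**Figure D4:**
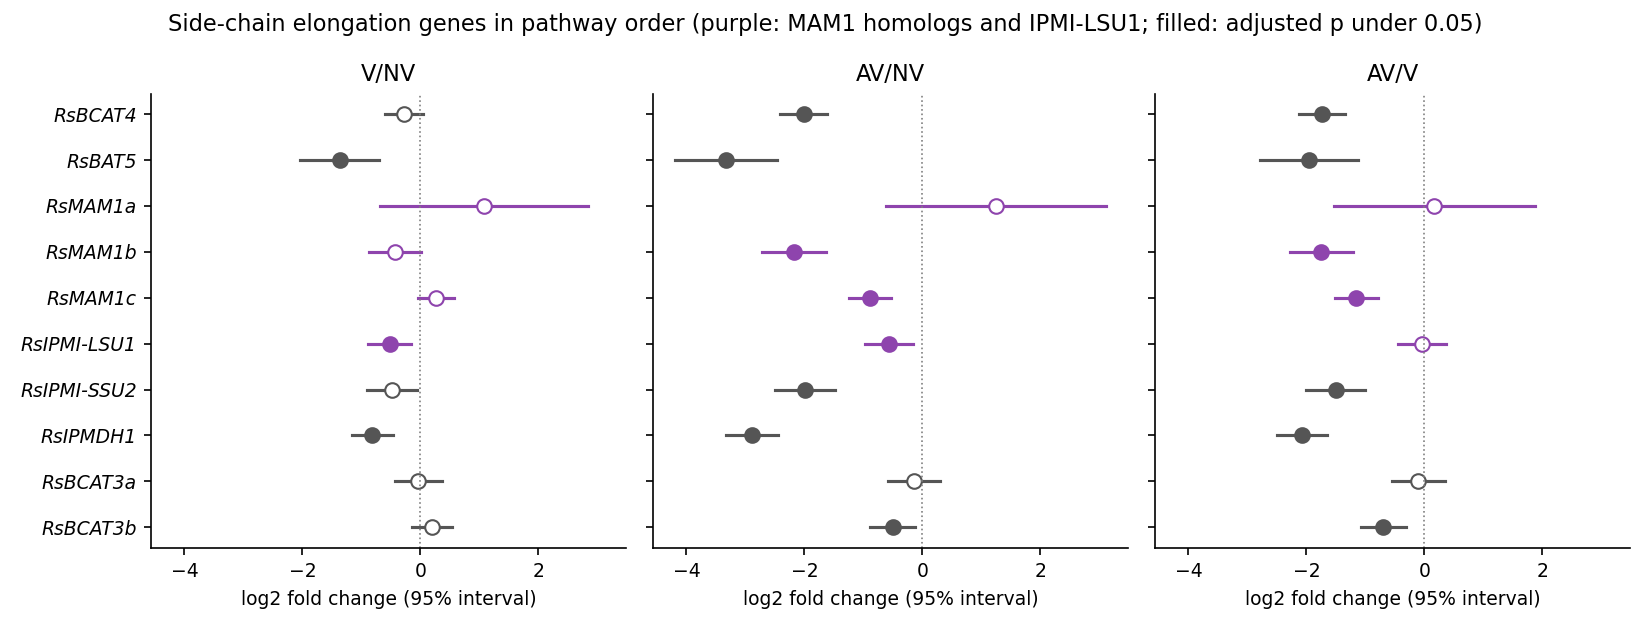
Log2 fold changes with 95% intervals of the 10 side-chain elongation genes in V/NV, AV/NV, and AV/V, listed from the first to the last step, with filled points for genes past an adjusted p of 0.05 and purple for the MAM1 homologs and *RsIPMI-LSU1*. In AV/V the points of *RsMAM1b*, *RsMAM1c*, *RsIPMI-SSU2*, and *RsIPMDH1* lie between -1.15 and -2.08, and that of *RsIPMI-LSU1* lies at -0.05.

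Whether the large subunit moved differently from its neighbours in the pathway was tested by ratios within a library. These pairs were chosen with earlier results of the same data known, so that their p-values are not free of that choice. Ratios of other gene pairs were not examined. The ratio of *RsIPMI-LSU1* to *RsIPMDH1* counts was 1.36, 1.52, and 1.61 in the NV libraries, 1.77, 1.88, and 1.85 in the V libraries, and 7.70 and 7.26 in the AV libraries. The 3 time points did not overlap, and the mean log2 ratio was higher by 0.29 in V than in NV, by 2.32 in AV than in NV, and by 2.03 in AV than in V. Of its sum of squares, 99.5% lay between the time points (one-sided exact permutation test, p = 0.00357, the smallest possible, adjusted p = 0.0143 over the 4 ratios). Without the averaged AV library the share was 99.2% and the ratio was no longer called. Fewer groupings exist there, and the permutation test cannot reach as small a p.

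The ratio of *RsIPMI-LSU1* to *RsIPMI-SSU2* was 4.26, 8.13, and 3.25 in the NV libraries, 4.05, 5.45, and 4.18 in the V libraries, and 12.9 and 12.1 in the AV libraries. Both AV libraries were above all others, whereas NV and V overlapped and NV replicate 2 stood apart from the other NV libraries. Of the spread of the log2 ratio, 74.6% lay between the time points, which was not called (one-sided exact permutation test, p = 0.0643, adjusted p = 0.0643).

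The ratio of *RsMAM1b* to *RsIPMI-LSU1* was 0.596, 0.539, and 0.425 in the NV libraries, 0.513, 0.611, and 0.526 in the V libraries, and 0.184 and 0.157 in the AV libraries. NV and V overlapped, and both AV libraries were lower. Here 95.6% of the spread lay between the time points (one-sided exact permutation test, p = 0.025, adjusted p = 0.0333). This call was lost without each of the 8 libraries in turn, NV replicates 1, 2, and 3, V replicates 1, 2, and 3, AV replicate 1, and the averaged AV library, with adjusted p from 0.0635 to 0.133 and shares from 92.6% to 98.3%.

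**Figure D5:**
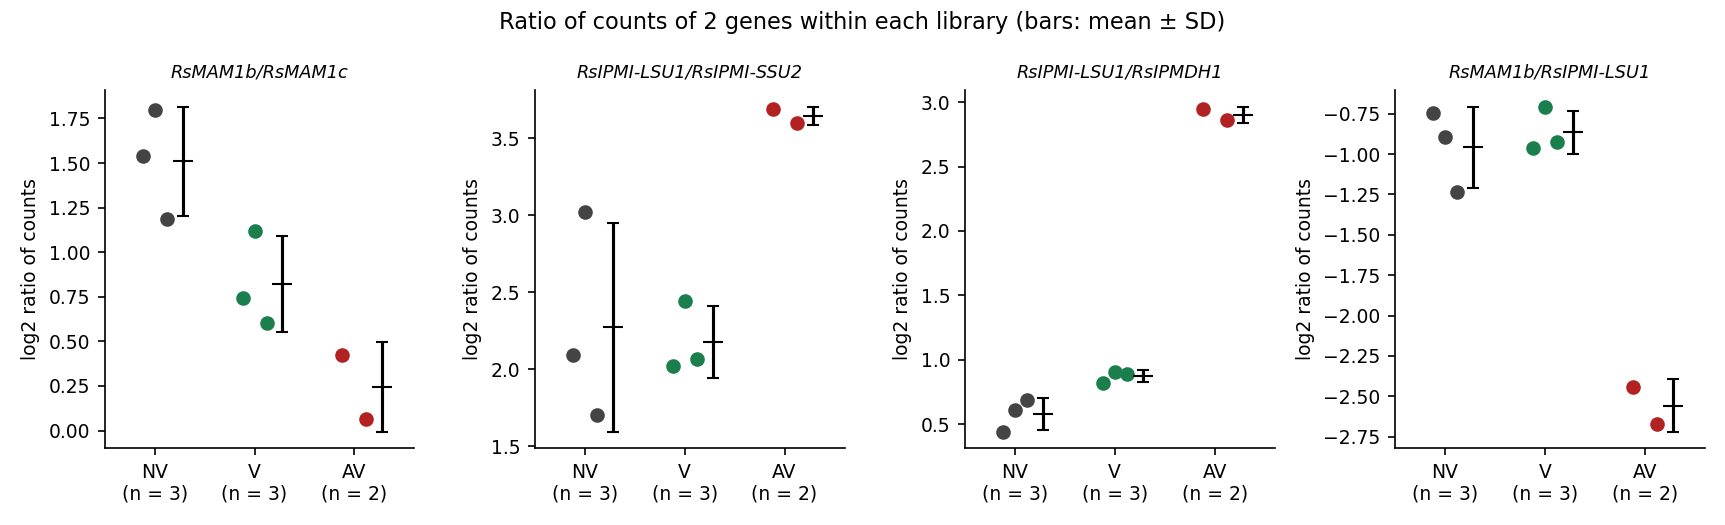
Log2 ratios of the counts of 2 genes within each library of NV, V, and AV for the 4 pairs tested, with the mean and SD beside the points and an axis of its own for each panel. *RsMAM1b*/*RsMAM1c* is lower in V than in NV and lowest in AV, and *RsIPMI-LSU1*/*RsIPMDH1* is about 2 log2 units higher in AV than in V.

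The list holds 5 homologs of MYB28 and MYB29, transcription factors that in *Arabidopsis* activate aliphatic GSLs genes including MAM1. In V compared with NV, 4 of them rose, namely *RsMYB28a* by 0.56, *RsMYB28b* by 0.98, *RsMYB28c* by 0.77, and *RsMYB29b* by 0.98 on the log2 scale (adjusted p = 0.00723, 0.0341, 0.00328, and 0.000851), while *RsMYB29a*, at -0.05, was not called (adjusted p = 0.868). In AV compared with NV, *RsMYB28a*, *RsMYB28c*, *RsMYB29a*, and *RsMYB29b* fell, with log2 fold changes from -3.29 to -1.04, whereas *RsMYB28b* rose by 1.46 (adjusted p = 0.0058). Of all genes tested, 19.2% were called higher in V/NV, and 19.8% were called lower and 17% higher in AV/NV. Mean levels of *RsMYB28b* were 2.61 CPM in NV, 5.15 CPM in V, and 7.17 CPM in AV. Differences between the profiles of these regulators and those of the MAM1 homologs were not tested.

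For each gene, the genes of the GSLs list with the most similar profile were taken by the correlation of log2 CPM over the 8 libraries, which fall into 3 time points, so that r mostly reflects the time points and is given as a description. *RsUGT74C1b* (r = 0.99) and *RsSOT18a* (r = 0.99), homologs of a glucosyltransferase and a sulfotransferase of the core structure steps, were most like *RsMAM1b*, and *RsUGT74C1b* ranked 2 among all 32042 other genes tested. *RsMYB29b* and *RsMYB28c* (r = 0.98 each) were most like *RsMAM1c* within the list, at ranks 62 and 66 among all genes. For *RsMAM1c*, 317 genes reached an r of 0.95 or more. For *RsIPMI-LSU1* the highest values were those of *RsCYP81F2b* and *RsSOT18i* (r = 0.89 each), at ranks 516 and 524 among all genes. Both were near or under the detection limit after NV, with *RsCYP81F2b* at 0.825 CPM in NV, 0.157 CPM in V, and 0.0561 CPM in AV, and *RsSOT18i* at 0.885 CPM in NV, 0.126 CPM in V, and 0 CPM in AV. For *RsMAM1a* they were those of *RsMYB28b* (r = 0.77) and *RsIGMT1c* (r = 0.73), on at most 13 counts per library. Between the 4 genes themselves, r was 0.88 for *RsMAM1b* and *RsMAM1c*, 0.68 for *RsMAM1b* and *RsIPMI-LSU1*, and 0.28 for *RsMAM1c* and *RsIPMI-LSU1*. For *RsMAM1a* it was -0.30 with *RsMAM1b*, -0.24 with *RsMAM1c*, and -0.35 with *RsIPMI-LSU1*.

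Among the 19 aliphatic core structure genes tested, to which the elongation genes do not belong, 9 fell and 1 rose in V compared with NV, where 19.3% of all genes tested fell and 19.2% rose. In AV compared with NV, 17 fell and none was called higher, where 19.8% of all genes fell and 17% rose, and in AV compared with V, 16 fell and 1 rose, where 16.9% of all genes fell and 14.7% rose. Their median log2 fold change was -0.41 in V/NV, -1.82 in AV/NV, and -1.55 in AV/V. The 3 comparisons share libraries and are not independent of each other.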

How the data were processed

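Stranded mRNA libraries of 3 biological replicates per time point were sequenced. The authors deposited raw counts per gene, made with HTSeq-count from TopHat2 alignments (default settings) against the Nodai genome assembly, after quality control in FastQC and trimming in fastx-trimmer. Tool versions and the strand setting are not given in the sources used here. HTSeq-count's totals of reads without a gene (4.27% to 8.89% of all reads) were left out.

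Counts were analysed with edgeR 4.0.16 under R 4.3.3: filterByExpr, TMM, 1 fit of all groups by glmQLFit with robust estimation, and glmQLFTest. The standard error is the log2 fold change divided by the square root of F. Ratios used a pseudocount of 0.5. The mean of AV replicates 2 and 3 was rounded.

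The genes, lists, and tests were chosen with earlier results of these data known. Named are the 4 genes, the other 6 elongation genes, the 5 MYB28 and MYB29 homologs (*RsMYB28b* added after its values were seen), and the 2 GSLs genes most similar to each of the 4 genes. Symbols are the study's; 0 of the identifiers matched the RefSeq gene table, and no sequence was matched. Alternatives were other normalizations, filters, tests (DESeq2 1.42.0), sample sets, a replicate block, and leaving out each library.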

Additional observations from a re-analysis of the deposited data

How the results depend on the processing

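The calls and directions of *RsMAM1b* and *RsMAM1c* in AV/NV and AV/V were the same in all 18 alternative fits for each, although *RsMAM1c* in AV/NV (-0.89) is under a minimum of 1 on the absolute log2 fold change. Over the fits without 1 library, log2 fold changes of *RsIPMI-LSU1* ranged from -0.66 to -0.38 in V/NV, from -0.66 to -0.43 in AV/NV, and from -0.12 to 0.092 in AV/V, and those of *RsMAM1b* in V/NV from -0.66 to -0.25. In AV/V, which was not called, *RsIPMI-LSU1* was at 0.014 with library totals only, and *RsMAM1a* was at -0.28 with the replicate block and between -0.27 and 0.33 without 1 library, with 0.63 to 2.23 in V/NV and 0.80 to 2.40 in AV/NV. *RsMAM1a* did not pass the filter in the fit of 9 libraries, in the V/NV and AV/NV fits of only those groups, under the filter of more than 1 CPM in 3 libraries, and without V replicate 2. The replicate block changed no other call or direction of the 4 genes. Same-numbered NV and V libraries had correlated deviations of r = 0.05 to 0.23, against -0.19 to 0.15 for other numbers, so that the numbers were not taken as pairs.

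With that minimum added, calls over all genes were 3283 higher and 3481 lower in V/NV, 2857 and 4211 in AV/NV, and 2463 and 3481 in AV/V, and 1 of the other 6 elongation genes was lower in V/NV. Without 1 library, calls ranged from 3295 to 5791 higher and from 4154 to 6692 lower in AV/NV, and from 2722 to 5450 higher and from 3271 to 6076 lower in AV/V, with the smallest counts where 1 AV library was left. No scaling moved the median of all genes by more than 0.0874 on the log2 scale. With library totals only, however, genes called higher made up 53.3% of the calls in AV/NV and 51.4% in AV/V. With TMM they made up 46.2% and 46.5%. The adjusted p of *RsIPMI-LSU1* in AV/NV was 0.05 in the edgeR test with library totals only, right at the threshold. The share of the sum of squares between time points without 1 library ranged from 78.1% to 89.6% for *RsMAM1b*/*RsMAM1c*, from 99.1% to 99.8% for *RsIPMI-LSU1*/*RsIPMDH1*, from 61.3% to 95.1% for *RsIPMI-LSU1*/*RsIPMI-SSU2*, and from 92.6% to 98.3% for *RsMAM1b*/*RsIPMI-LSU1*. With all 9 libraries as deposited, the share for *RsIPMI-LSU1*/*RsIPMI-SSU2* was 79.3% and passed (adjusted p = 0.0286, exact permutation test), with the near-identical AV pair counted as separate.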
